A study of Mus musculus with 6 samples.

Results

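The genes described here carry fatty acids into the cell, store them, oxidize them in mitochondria, use ketone bodies, or control and accompany these steps through the peroxisome proliferator-activated receptors (PPARs). They were 44 genes on a list by function, found by their symbol in a count table of 57010 genes. They comprised 13 genes of uptake and storage, 18 of beta-oxidation, 2 of ketone use, and 11 regulators and PPAR-associated genes. The libraries were 6 RNA-seq libraries of primary neonatal mouse cardiomyocytes (NMCMs), all kept under hypoxia (HO). The HO + Vehicle group held libraries V1 to V3. The HO + β-SITO group held libraries T4 to T6, from hypoxic cells given β-sitosterol (β-SITO), a plant sterol. The methods of the study give the source as hearts of neonatal C57BL/6 mice, with cardiomyocytes separated from fibroblasts by differential adhesion. Dose and time for these libraries, and whether each came from a separate culture, are not given in the sources used here, so p-values measure only the spread between these libraries. No normoxic library was analysed here, and what follows compares treated with untreated hypoxic cells.

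Heart muscle covers much of its energy need by oxidizing fatty acids. Lipoprotein lipase frees them from circulating triglyceride, the scavenger receptor CD36 brings them across the membrane, binding proteins of the FABP family carry them, and acyl-CoA synthetases (ACSLs) activate them for storage or oxidation. The carnitine shuttle takes the activated acids into mitochondria, where dehydrogenases, hydratases and thiolases shorten them. PPARα, PPARδ and PPARγ are nuclear receptors that bind fatty acids and switch on many of these genes. The heart around birth moves from the use of glucose and lactate towards fatty acids.

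With vehicle the libraries held 16694734 to 17082129 counts, and with β-SITO 16962152 to 18460522. Levels are CPM, in which each count is divided by the TMM-scaled total of its library. Cardiomyocyte markers were present: Myh6, the alpha myosin heavy chain, lay at 1973 ± 278 CPM with vehicle and 2849 ± 715 with β-SITO (mean ± SD, n = 3 each, as throughout). Markers of other cells were present too, and several lists moved between the groups. Marker genes are called higher or lower here when their adjusted p was under 0.05 and their change over 2-fold. Over all tested genes, 12.8% were higher and 10.1% lower by this rule. The summed level of 9 fibroblast markers was 30022 to 31267 CPM with vehicle and 45022 to 46148 CPM with β-SITO, with 1 higher and 0 lower. Most of this sum came from the collagens Col1a1, Col1a2 and Col3a1, the last at 10422 ± 180.5 and 18849.8 ± 378 CPM. At an adjusted p under 0.05 of any size, 6 of the 9 rose (background 33.0%) and 2 fell (background 33.8%). Those that fell were Dcn, from 1907 ± 135 to 1332 ± 78.9 CPM, and Postn, from 1152 ± 89.8 to 990 ± 55.4 CPM. The sum of 12 macrophage markers was 1376 to 1504 and 2863 to 3518 CPM, with 8 higher and 2 lower and with Lyz2 at 647 ± 59.7 and 1408 ± 170.2 CPM. The sum of 9 smooth muscle and pericyte markers was 1133 to 1231 and 1966 to 2243 CPM, with 5 higher and Acta2 at 562 ± 22.3 and 1114 ± 79.7 CPM. The sum of 11 endothelial markers was 1229 to 1369 and 1370 to 1396 CPM, with 9 higher, 1 lower and a median log2 fold change of 1.84. The abundant genes of this list, Eng at 535 ± 26.5 and 409 ± 20.9 CPM and Flt1 at 533 ± 48.5 and 104 ± 8.86 CPM, fell, while Pecam1 rose from 50.6 ± 2.97 to 181 ± 4.09 CPM and Kdr from 16.8 ± 1.59 to 88.7 ± 2.47 CPM. Flt1, Pecam1 and Kdr were picked after their values were seen. The 16 cardiomyocyte markers summed to 7456 to 8583 CPM with vehicle, and to 6449, 10891 and 11010 CPM in T4, T5 and T6, with 3 higher and 0 lower. At an adjusted p under 0.05 of any size, 6 of the 16 rose (background 33.0%) and 2 fell (background 33.8%). Those that fell were Tnnt2, from 1236 ± 11.0 to 892 ± 146 CPM, and Pln, from 126 ± 4.03 to 94.3 ± 25.5 CPM. The groups of Myh6 overlapped. The adipocyte markers Adipoq, Cfd and Retn had no count in any library, and of 7 adipocyte markers 1 (Cidea) could be tested. Of the lymphocyte and red blood cell lists, 0 of 5 genes each could be tested. In bulk RNA, fewer cells of a type and less RNA per cell cannot be told apart. Fabp4, Cd36, Lpl and Pparg are also expressed by endothelial cells, macrophages or adipocytes, and the part of other cells in the results below was not tested. Mitochondrially encoded genes took 1.19% to 1.32% of counts with vehicle and 1.87% to 2.26% with β-SITO.

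**Figure D1:**
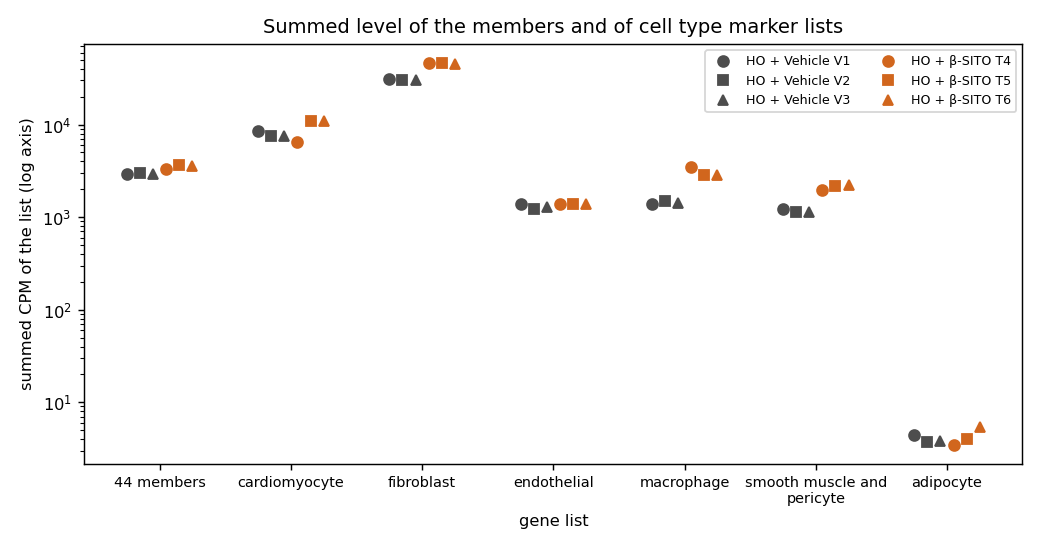
Summed CPM of each cell type marker list in each library (log axis), with HO + Vehicle and HO + β-SITO libraries as separate points. Fibroblast, macrophage, and smooth muscle and pericyte sums lie higher in all 3 β-SITO libraries, while the cardiomyocyte sum of T4 (6449 CPM) lies below every other library. Collagens make up most of the fibroblast sum.

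The 44 genes took 0.279% to 0.283% of all counts with vehicle and 0.351% to 0.386% with β-SITO, without TMM scaling. With that scaling the rise was smaller, from a summed 2951 to 2965 CPM to 3334 to 3679 CPM. Of the 44 genes, 43 passed the filter on low counts and were tested among 14799 genes with edgeR's quasi-likelihood test. Differentially expressed genes (DEGs) had to change by over 2-fold at an adjusted p under 0.05, the threshold of the study's methods. By this rule 7 of the 43 were higher with β-SITO (Acot1, Plin5, Fabp4, Pparg, Ucp2, Fabp5 and Ucp3), where the background over all tested genes was 12.8%, and 1 was lower (Acsl4), with a background of 10.1%. At an adjusted p under 0.05 of any size, 28 rose (background 33.0%), 7 fell (background 33.8%) and 8 did not pass. All β-SITO libraries lay above all vehicle libraries for 27 of the 43 (background 34.8%) and below them for 7 (background 35.8%). The median log2 fold change, β-SITO over vehicle, was 0.36 over the 43 genes and -0.01 over all tested genes. Library T4 was the lowest of its group for 33 of the 43 genes and the highest for 6. Without T4 the DEGs were 9 higher and 1 lower, with Acadm and Ech1 joining, and the median was 0.42.

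**Figure D2:**
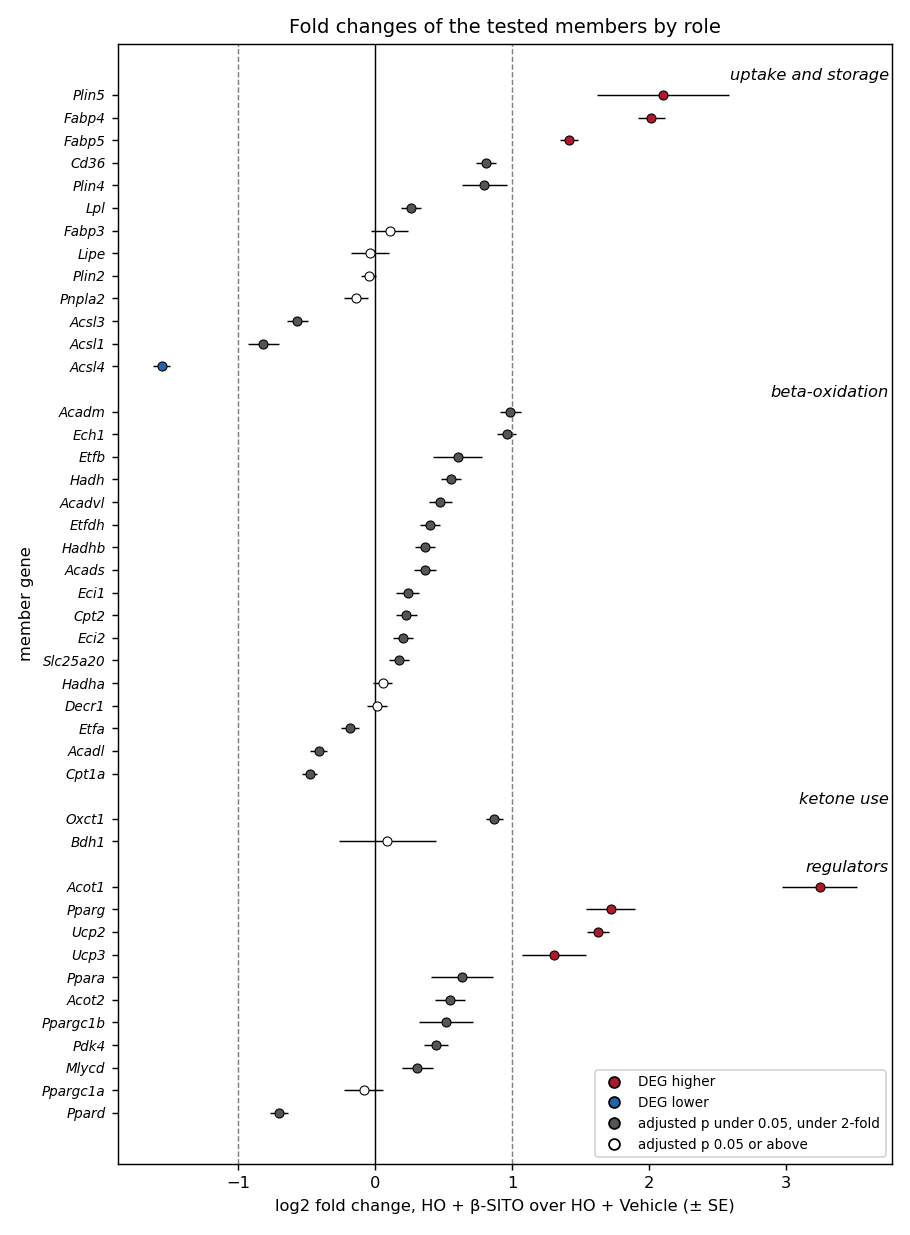
Log2 fold change (x axis, HO + β-SITO over HO + Vehicle, points with SE) of each of the 43 tested genes, ordered within its role; dashed lines mark 2-fold. Regulators and uptake genes hold all 8 DEGs, from 3.24 for Acot1 to -1.56 for Acsl4, while every beta-oxidation gene lies inside 2-fold.

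The 250 bases before the start are shown for the DEGs that had a promoter entry in RefSeq (mouse build GRCm38.p6) and the largest rises, Acot1 and Plin5, and for Acsl4, the DEG that was lower. Ucp3 is added, chosen after its values were seen, because its window held the PPAR hexamer AGGTCA at more than 1 position. Capitals mark AGGTCA on the printed strand, and each sequence reads 5′ to 3′ towards the start.
Acot1, chr12:84009252-84009501, plus strand: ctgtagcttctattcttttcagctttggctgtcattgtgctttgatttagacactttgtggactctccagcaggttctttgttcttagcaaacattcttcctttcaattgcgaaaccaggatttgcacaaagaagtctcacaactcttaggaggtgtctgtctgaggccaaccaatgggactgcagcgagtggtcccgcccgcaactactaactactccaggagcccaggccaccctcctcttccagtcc
Plin5, chr17:56117549-56117798, minus strand: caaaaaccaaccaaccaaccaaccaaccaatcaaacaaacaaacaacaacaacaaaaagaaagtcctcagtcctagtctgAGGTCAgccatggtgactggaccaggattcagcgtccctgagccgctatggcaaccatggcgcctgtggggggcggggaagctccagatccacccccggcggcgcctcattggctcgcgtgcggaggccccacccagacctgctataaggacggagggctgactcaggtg
Acsl4, chrX:142390536-142390785, minus strand: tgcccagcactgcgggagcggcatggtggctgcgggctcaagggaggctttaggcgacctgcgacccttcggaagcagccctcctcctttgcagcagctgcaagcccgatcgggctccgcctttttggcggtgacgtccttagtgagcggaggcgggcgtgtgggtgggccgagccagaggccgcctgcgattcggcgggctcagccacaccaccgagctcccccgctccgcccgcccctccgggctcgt
Ucp3, chr7:100472741-100472990, plus strand: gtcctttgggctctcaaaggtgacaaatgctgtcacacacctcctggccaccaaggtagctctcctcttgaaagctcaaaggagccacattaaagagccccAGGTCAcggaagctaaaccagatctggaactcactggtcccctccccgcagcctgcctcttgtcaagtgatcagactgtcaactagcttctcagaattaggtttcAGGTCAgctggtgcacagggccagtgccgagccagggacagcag
PPARs bind as heterodimers with RXR to this hexamer repeated in the same direction with 1 base between. On either strand, from 250 bases before to 50 after the start, that exact repeat was in 13 of 32851 promoter windows of the table (0.0396%) and in 0 of the 44 windows that the table held for 38 of the 44 genes. A single AGGTCA was in 5340 of all windows (16.3%) and in 10 of the 44 (22.7%), which belonged to Acadm, Acadvl, Cd36, Cpt1a, Plin2, Plin5, Pparg and Ucp3. In Ucp3 it stood 149 and 44 bases before the start, and in the printed Plin5 window 170 bases before it. Another Plin5 window, for a different start, held it 13 bases after that start. In Pparg, also a DEG, it stood 28 and 9 bases before different starts. These are matches of letters and say nothing about binding in these cells.

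Among the genes of uptake and storage, Fabp4, Fabp5 and Cd36 rose, Fabp3 did not pass the test, and the 3 acyl-CoA synthetases Acsl1, Acsl3 and Acsl4 fell. Of 13 genes, 6 rose (background 33.0%) and 3 fell (background 33.8%) at an adjusted p under 0.05, and 4 did not pass. By more than 2-fold, 3 rose (background 12.8%) and 1 fell (background 10.1%). The median log2 fold change of the 13 genes was 0.11, which became 0.31 without T4 and -0.015 without T6. Fabp4 encodes the binding protein typical of adipocytes, macrophages and capillary endothelium. It lay at 17.6, 25.3 and 20.5 CPM in V1 to V3 and at 83.2, 88.3 and 84.5 CPM in T4 to T6. Its means were 21.1 ± 3.86 and 85.3 ± 2.66 CPM, a 4.04-fold rise (log2 fold change 2.01 ± 0.10 SE, adjusted p = 5.21e-11). Fabp5, the epidermal type, lay at 106, 121 and 113 CPM with vehicle and at 315, 296 and 292 CPM with β-SITO. It rose 2.66-fold (log2 fold change 1.41 ± 0.06 SE, adjusted p = 2.27e-11). These genes lie close together on chromosome 3, Fabp5 at chr3:10077608-10081667 and Fabp4 at chr3:10269148-10273636 (GRCm39 coordinates of the count table). Fabp3, the heart type, behaved otherwise. It lay at 72.6, 76.5 and 71.6 CPM with vehicle and spread from 55.9 in T4 to 85.04 in T5 and 96.6 in T6, so that the groups overlapped (log2 fold change 0.11 ± 0.14 SE, adjusted p = 0.509).

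CD36 is the main membrane transporter of long-chain fatty acids in cardiomyocytes. Cd36 lay at 60.3, 56.3 and 62.0 CPM with vehicle and at 97.7, 114 and 101 CPM with β-SITO, a 1.75-fold rise with no overlap (adjusted p = 6.59e-08). Lpl encodes the lipase that releases fatty acids from lipoproteins. It lay at 736, 797 and 760 CPM and rose to 818, 1007 and 915 CPM (log2 fold change 0.26 ± 0.07 SE, adjusted p = 0.00594).

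Acyl-CoA synthetases couple fatty acids to coenzyme A, and each of the 3 in the list fell (background 33.8% at an adjusted p under 0.05). Acsl4, which prefers arachidonic and other polyunsaturated acids, lay at 117, 123 and 126 CPM with vehicle and at 42.0, 42.4 and 40.0 CPM with β-SITO. It was 2.95-fold lower (log2 fold change -1.56 ± 0.06 SE, adjusted p = 3.79e-12). Acsl1, the main form in the heart, went from 106, 83.9 and 105 CPM to 44.2, 60.5 and 62.5 CPM (log2 fold change -0.82 ± 0.11 SE, adjusted p = 1.28e-05). Acsl3, a form found on the endoplasmic reticulum and lipid droplets, went from 28.9, 30.4 and 31.6 CPM to 19.9, 20.8 and 20.6 CPM (log2 fold change -0.57 ± 0.08 SE, adjusted p = 7.79e-06). Each vehicle library lay above each β-SITO library for all 3 (background 35.8%). Acsl5, a pathway gene outside the 44, was chosen after its values were seen. It went from 323, 294 and 333 CPM to 83.1, 74.4 and 72.6 CPM (log2 fold change -2.05 ± 0.07 SE, adjusted p = 8.19e-13).

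Perilipins coat lipid droplets. Plin5, the perilipin of oxidative tissues, was at the edge of detection, with 6, 2 and 4 counts in the vehicle libraries and 14, 16 and 32 counts in the β-SITO libraries. This was 0.251 ± 0.127 and 1.095 ± 0.503 CPM, a 4.29-fold rise (log2 fold change 2.10 ± 0.48 SE, adjusted p = 0.00126) with the widest SE of the DEGs. A filter of at least 1 CPM in 3 libraries removed Plin5, which left 6 DEGs higher among the 44 and 2 in this role. Plin4 rose from 19.3, 13.1 and 17.0 CPM to 20.4, 33.9 and 31.8 CPM (log2 fold change 0.80 ± 0.17 SE, adjusted p = 0.000572), with T4 close to the vehicle libraries. Plin2, the droplet protein found in most cells, lay at 153.7, 159.9 and 154.6 CPM and at 156.2, 150.5 and 146.4 CPM, with overlapping groups (adjusted p = 0.467). Pnpla2 and Lipe encode the lipases that open stored triglyceride and diglyceride. Their log2 fold changes were -0.14 ± 0.09 SE (adjusted p = 0.163) and -0.04 ± 0.14 SE (adjusted p = 0.822), and their groups overlapped.

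**Figure D3:**
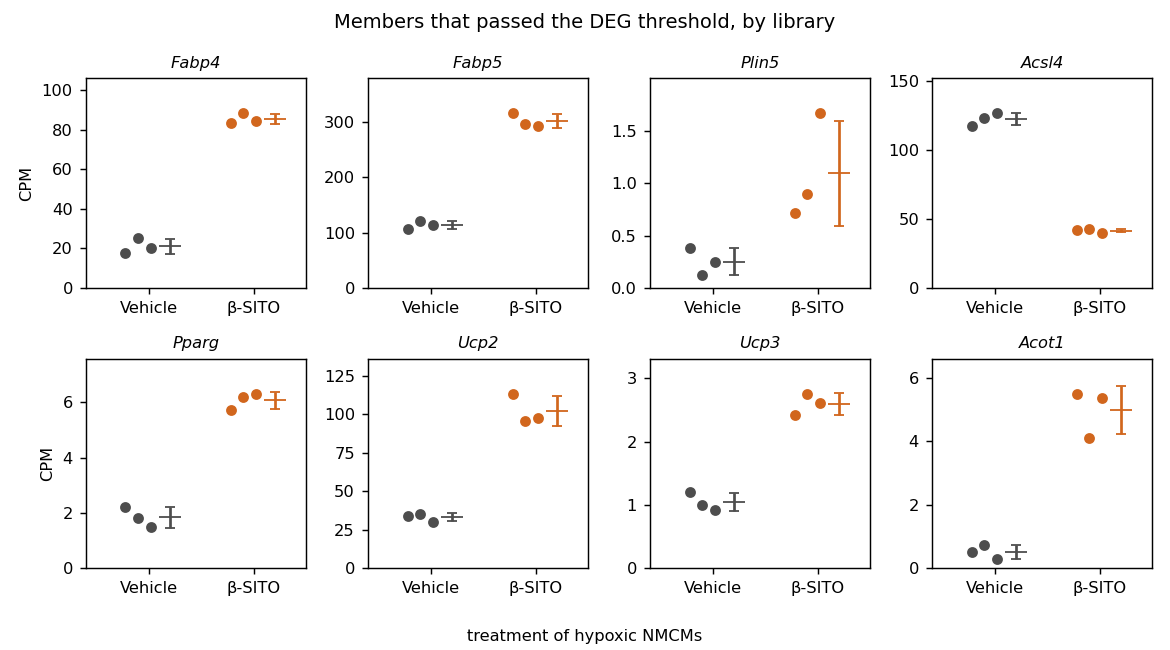
CPM (y axis, linear, from 0) of the 8 DEGs in each library, with points for libraries and bars for the mean ± SD of 3. The groups do not overlap for any of them, and the β-SITO libraries of Plin5 spread from 0.719 to 1.67 CPM.

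In beta-oxidation most tested genes rose by less than 2-fold, while Cpt1a, Acadl and Etfa fell. Of 18 genes, 17 were tested. At an adjusted p under 0.05, 12 rose (background 33.0%), 3 fell (background 33.8%) and 2 did not pass. DEGs numbered 0 (background 12.8% higher and 10.1% lower). The log2 fold changes ran from -0.48 to 0.98 with a median of 0.24. Cpt1a, the outer-membrane carnitine acyltransferase that controls entry into mitochondria, lay at 188, 178 and 194 CPM with vehicle and at 135, 133 and 134 CPM with β-SITO. It fell by 0.48 on the log2 scale (SE 0.06, adjusted p = 2.22e-06). Cpt1b, the muscle form that dominates in adult heart, had 3, 3 and 2 counts and 1, 4 and 1 counts, too few for a test. Another gene on its strand shares most of its sequence, so this count is uncertain and its change is not known. The next steps of the shuttle rose slightly, Cpt2 by a log2 fold change of 0.23 (adjusted p = 0.0187) and Slc25a20, the carnitine-acylcarnitine carrier, by 0.17 (adjusted p = 0.0412).

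The acyl-CoA dehydrogenases, which act on chains of different length, did not move together. Acadm (medium chain) lay at 40.7, 37.8 and 39.2 CPM with vehicle and at 69.0, 82.4 and 81.5 CPM with β-SITO. Its log2 fold change of 0.98 ± 0.08 SE (adjusted p = 1.75e-08) was just inside 2-fold. Acadvl (very long chain) rose by 0.48 (adjusted p = 0.000101) and Acads (short chain) by 0.36 (adjusted p = 0.00113). Acadl (long chain) fell, from 175, 162 and 171 CPM to 118, 134 and 130.2 CPM (log2 fold change -0.41 ± 0.06 SE, adjusted p = 3.23e-05). Ech1, which moves double bonds of unsaturated acids, went from 35.7, 36.2 and 32.0 CPM to 63.0, 69.2 and 69.6 CPM (log2 fold change 0.96 ± 0.07 SE, adjusted p = 1.16e-08), also just inside 2-fold. Acadm and Ech1 passed 2-fold without V1 and without T4, and Acadm also without V3, so the count of DEGs in this role was 0 to 2. T4 was the lowest β-SITO library for 15 of the 17 tested genes.

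Of the remaining genes of the cycle, Hadha and Decr1 did not pass the test. Hadh, the short-chain hydroxyacyl-CoA dehydrogenase, rose from 46.1 to 49.1 CPM with vehicle to 63.7 to 76.3 CPM with β-SITO (log2 fold change 0.56, adjusted p = 6.78e-06). The trifunctional protein catalyses the last steps for long chains, and its subunits are encoded by the adjacent, divergent genes Hadha and Hadhb. Hadhb rose (log2 fold change 0.36, adjusted p = 0.000426), while Hadha lay at 222.4, 187.1 and 198.8 CPM and at 202.1, 213.7 and 215.6 CPM with overlapping groups (log2 fold change 0.05, adjusted p = 0.499). Etfdh and Etfb, of the chain that passes electrons on from the dehydrogenases, rose by log2 fold changes of 0.40 (adjusted p = 0.000207) and 0.60 (adjusted p = 0.00788). Etfa, the partner subunit of Etfb, fell by 0.19 on the log2 scale (adjusted p = 0.0223). The isomerases Eci1 and Eci2 rose by 0.24 (adjusted p = 0.0257) and 0.20 (adjusted p = 0.0229) on the log2 scale. Decr1, the dienoyl-CoA reductase, differed by 0.01 (adjusted p = 0.909).

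Of the genes of ketone use, Oxct1 rose and Bdh1 was barely detected. Oxct1 encodes the transferase that commits ketone bodies to oxidation outside the liver. It lay at 125, 120.3 and 130.4 CPM with vehicle and at 242, 217 and 227 CPM with β-SITO, means of 125 ± 5.05 and 229 ± 12.3 CPM. The rise of 1.83-fold (log2 fold change 0.87 ± 0.06 SE, adjusted p = 5.18e-09) was below the 2-fold threshold and well outside the spread between replicates. Bdh1, the mitochondrial hydroxybutyrate dehydrogenase, lay at 1.45, 0.878 and 0.620 CPM and at 1.18, 0.675 and 1.25 CPM. Its groups overlapped (log2 fold change 0.09 ± 0.35 SE, adjusted p = 0.843), and no difference was detectable at this depth.

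Among the receptors themselves, Pparg rose, Ppard fell and Ppara rose slightly. Pparg, the receptor best known from adipocytes and macrophages, lay at 2.21, 1.82 and 1.49 CPM with vehicle and at 5.70, 6.18 and 6.30 CPM with β-SITO. It rose 3.29-fold (log2 fold change 1.72 ± 0.18 SE, adjusted p = 5.73e-07). Ppard is expressed in most tissues. It lay at 64.4, 64.3 and 59.2 CPM and fell to 37.3, 39.3 and 38.6 CPM (log2 fold change -0.70 ± 0.07 SE, adjusted p = 1.37e-07). Ppara, the receptor of fasting and fatty acid oxidation, lay at 2.65, 1.505 and 2.60 CPM and at 2.93, 3.77 and 3.80 CPM (log2 fold change 0.63 ± 0.23 SE, adjusted p = 0.0229). The receptors' libraries did not overlap between groups (background 34.8% higher and 35.8% lower), although T4 stood close to V1 and V3 for Ppara.

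The coactivators PGC-1α and PGC-1β bind PPARs and raise mitochondrial gene expression. Ppargc1a lay at 14.7, 11.97 and 11.8 CPM with vehicle and at 9.15, 13.6 and 13.5 CPM with β-SITO, with overlap (log2 fold change -0.09 ± 0.14 SE, adjusted p = 0.613). Ppargc1b lay at 3.22, 2.57 and 2.29 CPM and at 3.24, 4.44 and 3.90 CPM (log2 fold change 0.52 ± 0.20 SE, adjusted p = 0.0312), with T4 next to V1.

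The other 6 genes of this role rose at an adjusted p under 0.05 (background 33.0%). Acot1, a cytosolic thioesterase that releases fatty acids from coenzyme A, had 8, 12 and 5 counts in V1 to V3 and 107, 73 and 103 counts in T4 to T6. Its means were 0.523 ± 0.222 and 4.99 ± 0.769 CPM, a 9.46-fold rise (log2 fold change 3.24 ± 0.28 SE, adjusted p = 5.04e-08). Acot2, its mitochondrial paralog, went from 7.83, 6.83 and 7.004 CPM to 10.7, 10.7 and 10.2 CPM (log2 fold change 0.55 ± 0.11 SE, adjusted p = 0.000497). Ucp2 and Ucp3 encode uncoupling proteins of the inner mitochondrial membrane. Ucp2 went from 34.0, 35.2 and 30.4 CPM to 113, 95.9 and 97.3 CPM (log2 fold change 1.62 ± 0.08 SE, adjusted p = 7.24e-11). Ucp3, the form of muscle, went from 1.2001, 1.003 and 0.930 CPM to 2.42, 2.75 and 2.60 CPM (log2 fold change 1.30 ± 0.23 SE, adjusted p = 0.00014). A test against a 2-fold change (glmTreat) did not call Ucp3 (adjusted p = 0.184). Pdk4, the kinase that shuts off pyruvate dehydrogenase when fat is burned, lay at 27.9, 23.4 and 26.4 CPM and at 31.2, 37.1 and 37.2 CPM (log2 fold change 0.44 ± 0.09 SE, adjusted p = 0.000478). Mlycd, which removes malonyl-CoA, an inhibitor of CPT1, rose by a log2 fold change of 0.31 ± 0.11 SE (adjusted p = 0.0284) with overlapping groups.

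**Figure D4:**
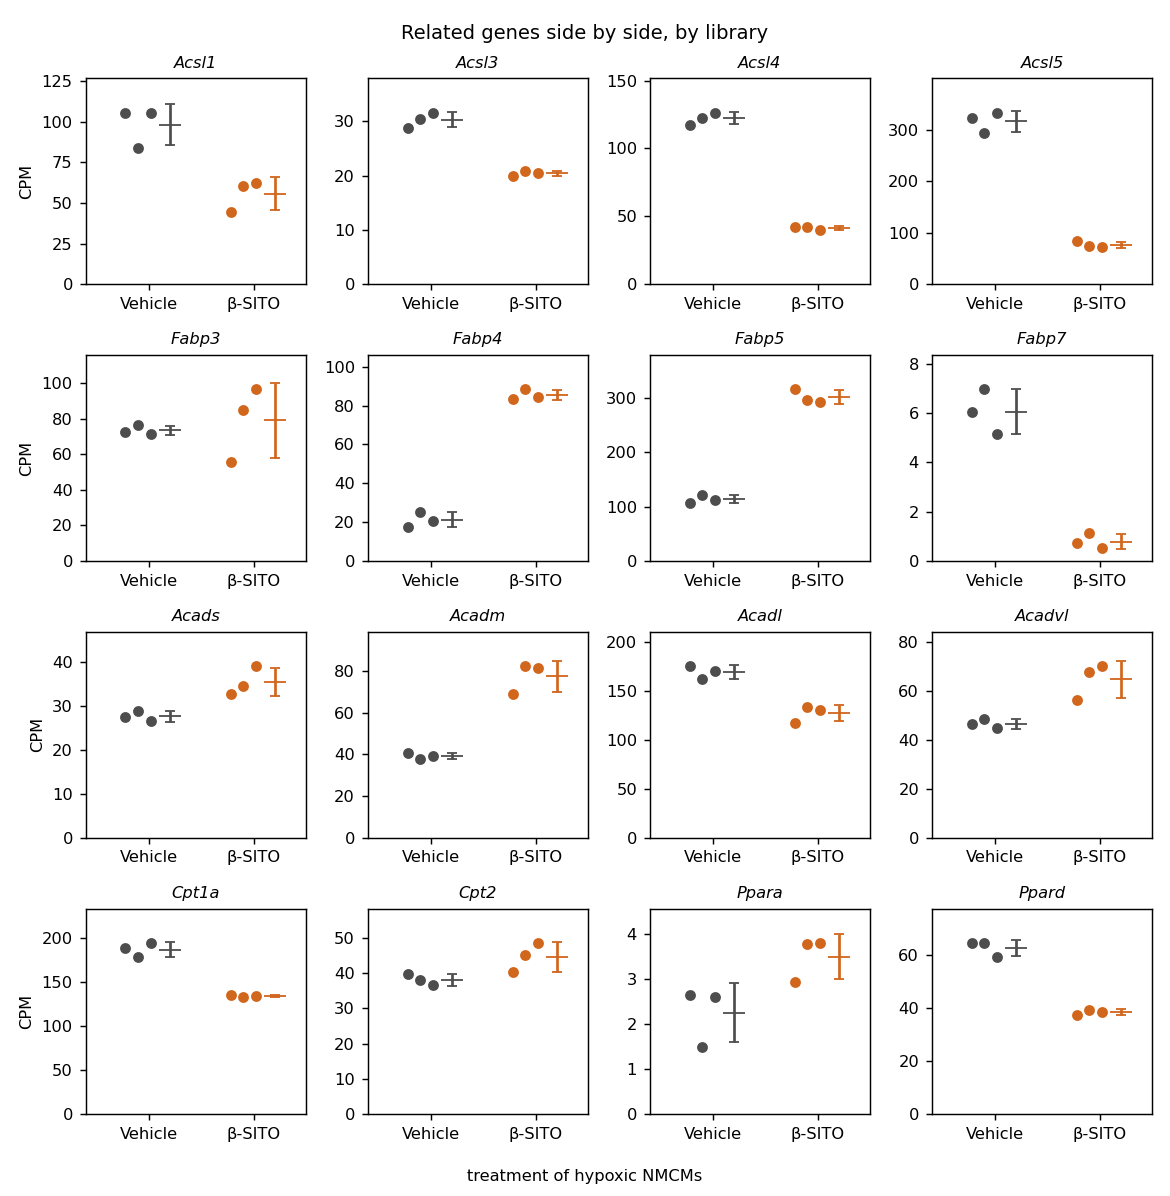
CPM (y axes, linear, from 0) in each library of acyl-CoA synthetases, fatty acid binding proteins, acyl-CoA dehydrogenases, Cpt1a and Cpt2, and Ppara and Ppard, with HO + Vehicle in grey, HO + β-SITO in orange and bars for the mean ± SD of 3. All 4 synthetases lie lower with β-SITO, Fabp4 and Fabp5 lie higher while Fabp3 overlaps, and Acadl lies lower where the other dehydrogenases lie higher. Over all tested genes, 34.8% lay higher and 35.8% lower in all β-SITO libraries than in all vehicle libraries.

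Levels of different genes can be compared only per length. Levels were divided by the joined length of all annotated exons of each gene (GENCODE vM21, matched by gene identifier). That length can exceed the length of the transcript present. It was 10478 bases for Lpl, 3567 for Fabp5 and 823 for Fabp3. Their longest coding transcripts held 3966, 838 and 674 stretches of 150 bases. The order between genes depends on this choice, and other lengths were not tested. By this measure the most abundant of the 44 with vehicle were Fabp3 at 89.4, Acadl at 84.5 and Lpl at 73.0 CPM per kb. With β-SITO the order was Fabp3 at 96.2, Lpl at 87.2 and Fabp5 at 84.4 CPM per kb, ahead of Acadl at 63.5 and Oxct1 at 61.8. Fabp5 had been at 31.7 and Oxct1 at 33.9 CPM per kb with vehicle. Acsl4 moved from rank 10 (22.6 CPM per kb) to rank 27. Cpt1b was the lowest in both groups, at 0.0496 and 0.0325 CPM per kb, but its count is uncertain because another gene shares most of its sequence.

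**Figure D5:**
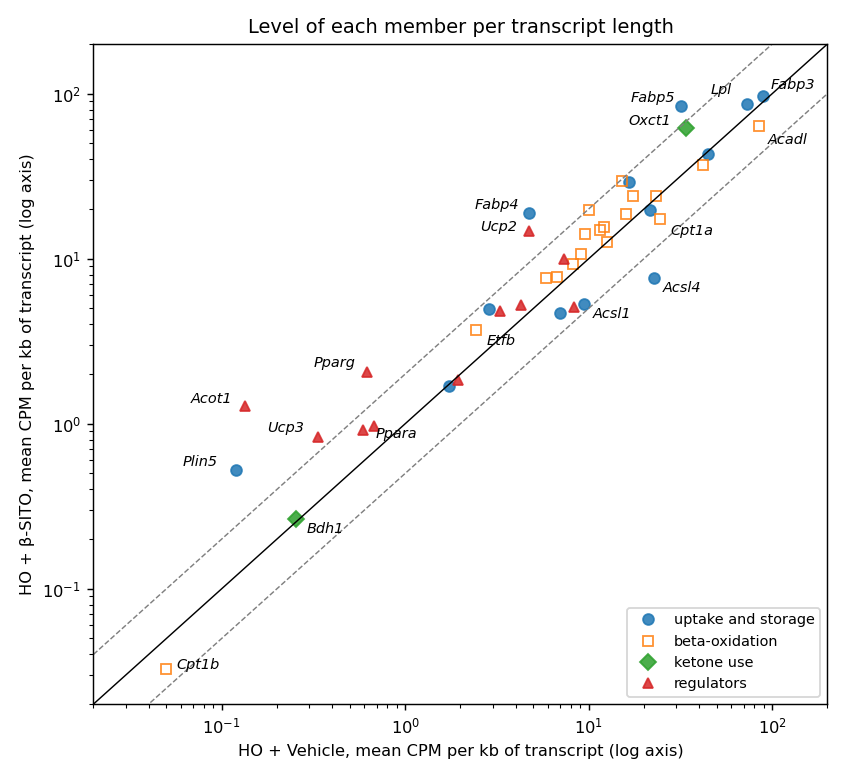
Mean level per length of all annotated exons (CPM per kb, log axes) of each of the 44 genes, with vehicle (x axis) and with β-SITO (y axis). The solid line marks equal levels, dashed lines 2-fold, and symbols the role. Acot1, Fabp4, Pparg and Plin5 lie furthest above the line and Acsl4 furthest below it.

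Some of these genes share position or sequence with others, which can touch their counts. Acot2 (chr12:84034635-84040647) and Acot1 (chr12:84056264-84065145) are neighbours, as are Ucp3 (chr7:100122197-100135639) and Ucp2 (chr7:100142544-100151227), all on the plus strand. Of all stretches of 150 bases in the longest coding transcript of Acot1 (GENCODE vM21), 12.4% occur in transcripts of other genes, 9.84% in Acot2. The shares that follow were taken in the same way. The span of Cpt1b was fully covered by another gene on its strand, Gm44502, which had 0 counts in every library, and 89.1% of its stretches were shared with that gene, so the low count of Cpt1b is uncertain. Etfb was covered over 99.7% of its span by Etfbl, also with 0 counts, and 62.9% of its stretches were shared, so its level is uncertain too. For Hadhb 43.7% and for Fabp3 15.9% of stretches were shared with other transcripts. Lipe lies fully within a gene of the opposite strand, and for Acadvl this held for 40.5% of its span. Whether counting used strand is not given in the sources used here.

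A wider list of 103 other genes of these pathways held 93 tested genes. Of these, 9 were DEGs higher (background 12.8%) and 6 lower (background 10.1%), 36 rose (background 33.0%) and 26 fell (background 33.8%) at an adjusted p under 0.05, and the median log2 fold change was 0.06. The 15 PPAR partners and co-regulators held 0 DEGs, although 7 rose and 3 fell at an adjusted p under 0.05. Among 13 genes of fatty acid transport and lipoprotein lipolysis, 2 were DEGs higher and 4 lower, and 5 rose and 6 fell at an adjusted p under 0.05. Gpihbp1, the endothelial anchor of lipoprotein lipase, lay at 1.64, 1.505 and 1.49 CPM and at 16.5, 19.5 and 18.9 CPM (log2 fold change 3.56 ± 0.14 SE, adjusted p = 4.55e-12). Slc27a6, a fatty acid transport protein of the heart, went from 1.77, 1.82 and 2.11 CPM to 9.30, 7.81 and 6.61 CPM (log2 fold change 2.05 ± 0.18 SE, adjusted p = 8.41e-08). Angptl4, a secreted inhibitor of lipoprotein lipase that both PPARs and hypoxia induce, fell from 128, 129.8 and 125 CPM to 11.9, 13.5 and 15.9 CPM (log2 fold change -3.21 ± 0.09 SE, adjusted p = 4.04e-14). Fabp7, the brain type of binding protein, fell from 6.06, 6.96 and 5.14 CPM to 0.719, 1.12 and 0.521 CPM (log2 fold change -2.94 ± 0.25 SE, adjusted p = 4.25e-08).

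Of 16 genes of triglyceride synthesis and droplet lipolysis, 2 were DEGs higher (background 12.8%) and 0 lower (background 10.1%). At an adjusted p under 0.05, 4 rose (background 33.0%) and 6 fell (background 33.8%), with a median log2 fold change of -0.15. Mgll, the monoglyceride lipase, went from 9.10, 7.08 and 7.69 CPM to 36.1, 39.8 and 38.7 CPM (log2 fold change 2.26 ± 0.10 SE, adjusted p = 1.33e-11). G0s2, an inhibitor of the triglyceride lipase, went from 21.7, 26.3 and 23.5 CPM to 71.5, 77.6 and 74.3 CPM (log2 fold change 1.64 ± 0.08 SE, adjusted p = 3.65e-11). Of 30 genes of carnitine handling and of further mitochondrial and peroxisomal oxidation, 3 were DEGs higher (background 12.8%) and 1 lower (background 10.1%). At an adjusted p under 0.05, 13 rose (background 33.0%) and 6 fell (background 33.8%). Abcd2, a peroxisomal transporter, rose from 1.14, 1.76 and 0.992 CPM to 7.30, 6.86 and 6.82 CPM (adjusted p = 3.21e-08). Thiolases end the cycle, and those among the DEGs of this sublist moved apart. Acaa2, a mitochondrial one, went from 26.2, 24.9 and 26.3 CPM to 91.3, 104 and 103 CPM (log2 fold change 1.94 ± 0.07 SE, adjusted p = 1.87e-12). Acaa1a, a peroxisomal one, went from 157, 168 and 149 CPM to 64.5, 63.3 and 66.7 CPM (log2 fold change -1.29 ± 0.06 SE, adjusted p = 5.11e-11).

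Among genes of ketone synthesis, ketone transport and malonyl-CoA, the monocarboxylate transporter Slc16a7 went from 1.83, 1.505 and 2.17 CPM to 9.30, 7.59 and 8.48 CPM (log2 fold change 2.20 ± 0.17 SE, adjusted p = 2.01e-08). Of 10 genes of pyruvate dehydrogenase control, 0 were DEGs higher (background 12.8%) and 1 lower (background 10.1%). At an adjusted p under 0.05, 2 rose (background 33.0%) and 4 fell (background 33.8%). Pdp2, a phosphatase that reactivates the enzyme, fell from 24.3, 20.8 and 25.4 CPM to 11.2, 11.6 and 11.5 CPM (log2 fold change -1.04 ± 0.09 SE, adjusted p = 1.16e-07).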

How the data were processed

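RNA was measured by RNA-seq in 6 libraries of NMCMs under hypoxia, 3 with vehicle and 3 with β-SITO, grouped by their sample titles. The authors deposited 1 table of raw counts per gene for all libraries, without normalization. The submitters' processing notes name FastQC, HISAT2, featureCounts and GRCm39. Versions, options and strand setting are not given in the sources used here. For the kit, the labels name Illumina and the study's methods ABclonal.

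From the deposited counts, genes with low counts were removed with filterByExpr and libraries scaled with TMM. The comparison used the quasi-likelihood test of edgeR (R 4.3.3, edgeR 4.0.16, limma 3.58.1), with the group as the sole term and Benjamini-Hochberg adjustment over the 14799 genes tested. DEGs changed by over 2-fold at an adjusted p under 0.05. The SE is that of the log2 fold change, taken from the F statistic. The biological coefficient of variation was 6.52%. An exact permutation test of 3 libraries against 3 cannot go below 0.1, so p-values come from the model across genes. The script was tested on simulated counts. Replicates differed by more than sampling noise. Library names of the HO + β-SITO group carry an extra letter, so preparation and treatment cannot be told apart if they were prepared separately.

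The 44 genes and all lists were chosen with earlier results of these data known. DEGs among the 44, the receptors, the coactivators and the ketone genes were given per library. Of the wider pathway list, each sublist's DEGs with the largest rise and fall (at most 2 each, mean of at least 50 counts) were named, and of the marker lists the most abundant gene and absent defining markers. Values per library of other members were added after they were seen. A gene chosen by the rule is not reported here. Promoter sequences came from RefSeq (GRCm38.p6), a build other than that of the counts, and were matched by symbol. Alternatives were DESeq2 1.42.0, limma-voom, glmTreat, no fold threshold, other normalizations and filters, removal of mitochondrially encoded genes and of each library in turn.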

Additional observations from a re-analysis of the deposited data

How the results depend on the processing

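No paired analysis was possible because the groups share no replicate number (1 to 3 against 4 to 6). Of the alternative values for single genes of the 44, 588 kept direction and side of the threshold, 38 passed it newly, 1 lost it (Ucp3 with glmTreat) and 17 changed sign, all of genes that had not passed. A filter of at least 1 CPM in 3 libraries left Plin5 untested, so that it has no value there, with 6 DEGs higher among the 44 and 2 in uptake and storage. With no fold threshold, 28 of the 44 were higher (background 33.0%) and 7 lower (background 33.8%). By role these were 6 and 3 for uptake and storage, 12 and 3 for beta-oxidation, 1 and 0 for ketone use, and 9 and 1 for regulators. The wider pathway list held 36 and 26. Upper-quartile scaling and scaling by library size alone moved the median of all tested genes from -0.01 to 0.14, the median of the 44 to 0.50 and 0.51, the beta-oxidation DEGs to 2 higher and the ketone DEGs to 1 higher (Oxct1), and the share of DEGs that were higher from 55.9% to 63.7% and 63.9%. The mean share of counts was 0.284% with vehicle and 0.380% with β-SITO without mitochondrially encoded genes. Leaving out each library in turn gave 7 to 9 DEGs higher and 1 lower, a median of 0.30 to 0.42, a median of -0.015 to 0.31 for uptake and storage, and 0 to 2 beta-oxidation DEGs. The sign changes were Fabp3 from -0.056 to 0.31 without 1 library, Pnpla2 at 0.0049 with library size alone, Plin2 at 0.10 with either scaling, Lipe at 0.11 with either scaling and from -0.11 to 0.15 without 1 library, Decr1 from -0.027 to 0.082 and Bdh1 from -0.14 to 0.50 without 1 library, and Ppargc1a at 0.057 and 0.062 with the scalings and from -0.17 to 0.083 without 1 library. Depth limits Bdh1 and Plin5 most. The count of Cpt1b is low too, and it is uncertain because another gene shares most of its sequence. For the other changes the cause was not tested.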
